A study of Mus musculus with 11 samples.

Results

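The transcriptomes of NIH-3T3 cells were compared after 48 h with the aptamer AS1411 and after 48 h with a control oligonucleotide, using 5 of the 11 libraries of the study and all genes tested. NIH-3T3 is an established line of mouse embryonic fibroblasts, labelled wild type. The AS1411 group at 48 h held 2 libraries (replicates 1 and 2) and the control group at 48 h held 3 (replicates 1 to 3). The members were taken by library title alone. A further 3 AS1411 and 3 control libraries from 24 h entered the statistical model and serve below as the early time point. Both oligonucleotides had been added to the culture medium at 10 µM, and polyadenylated RNA was sequenced. Separate cultures are not stated for the replicates, and p-values therefore reflect only how far these libraries differ, which may be technical.

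AS1411 is a guanine-rich DNA aptamer whose G-quadruplex folds are known to bind nucleolin. Nucleolin is found mainly in the nucleolus and also at the cell surface, and takes part in ribosome production and RNA binding. The control has cytosine at each position where AS1411 has guanine, and the sequences are shown because this base is the only difference between the 2 treatments. Both are 26 bases long, with 9 thymines and 17 bases (in capitals) of the kind that differs.
AS1411: GGtGGtGGtGGttGtGGtGGtGGtGG
Control oligonucleotide: CCtCCtCCtCCttCtCCtCCtCCtCC

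Total counts at 48 h were 16106724 and 14236610 in the AS1411 libraries and 14637744, 17061026 and 18069867 in the control libraries. Control replicate 2 stood apart from the other control libraries. Over 10144 genes, the log2 differences between replicate 2 and the other control libraries had an SD of 0.222 and 0.242, whereas replicates 1 and 3 differed by 0.163 and the AS1411 libraries differed from each other by 0.158. AS1411 and control libraries differed by 0.462 to 0.499. On the second principal component of the 48 h libraries, which held 13.0% of the variance against 73.5% for the first, replicate 2 was at -23.9 and the other control libraries were at 9.49 and 15.6. The counts of called genes, the counts and medians of the function lists and the fold changes of named genes were therefore also computed without control replicate 2, and are given where they differed enough to matter.

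Expression levels are given as CPM, reads scaled to the size of each library after TMM, a method that sets the bulk of genes to no change. The threshold was an adjusted p of 0.05 in edgeR's quasi-likelihood test with Benjamini-Hochberg adjustment over the 13040 genes tested. Fold changes are log2 values ± SE, AS1411 over control. Rises and falls compare AS1411 with the control at the same time, unless times are named.

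After 48 h with AS1411, 3835 genes (29.4% of those tested) were higher than with the control oligonucleotide and 3713 (28.5%) were lower, 57.9% in all. At least 2-fold changes were seen in 907 higher genes (6.96%) and 260 lower genes (1.99%). The median log2 fold change was 0.54 among the higher genes and -0.38 among the lower ones, against 0.01 over all genes. Without control replicate 2 there were 3904 higher (29.9%) and 3797 lower (29.1%) genes. Of the calls, 3562 higher and 3526 lower genes were shared between the fits with and without this library, and no gene was called in opposite directions. When libraries were scaled by total count alone, 5428 genes were higher and 2372 lower, so that higher genes made up 69.6% of calls in place of 50.8%, and the median over all genes became 0.16. All directions below are relative to TMM scaling. In bulk RNA, fewer cells of a kind and less of a transcript per cell cannot be told apart.

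**Figure D1:**
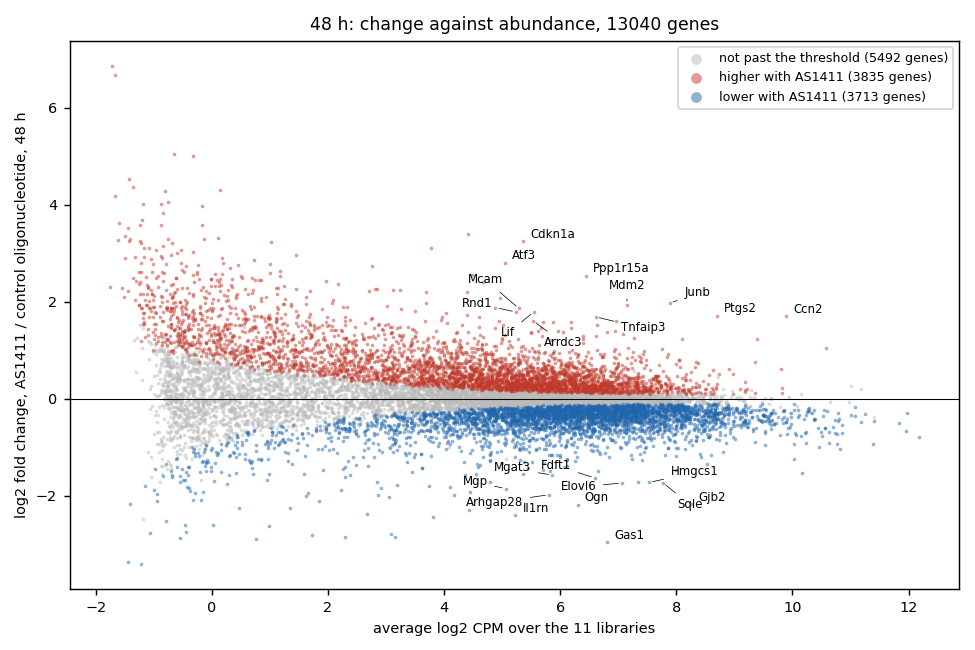
Log2 fold change at 48 h (AS1411 over control) against average log2 CPM over the 11 libraries, 1 point per gene, coloured by the test result. Genes at least 2-fold higher (907) outnumber those at least 2-fold lower (260), and the named genes are those of the largest rises and falls among abundant genes that the text describes.

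Changed genes were not spread evenly over abundance. When genes were split into 5 groups of equal size by average CPM, the lowest group behaved unlike the highest. In the lowest group, 30.9% were higher and 6.13% were lower, and 23.5% were at least 2-fold higher. In the most abundant group, 17.2% were higher and 55.5% were lower, with a median log2 fold change of -0.18. A limit applies to the lowest levels: 179 tested genes passed the low-count filter, set at about 0.637 CPM, only through the 2 AS1411 libraries of 48 h, and 160 of these were at least 2-fold higher. The function lists described below held 10 such entries, at most 2 in a list. Most genes named below were well above that level.

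Among abundant genes (log2 CPM of 5 or more on average) whose AS1411 and control libraries did not overlap at 48 h, as was the case for 67.9% of all genes, the 12 largest rises included regulators of growth arrest and stress. Cdkn1a (chromosome 17, 29090976 to 29100727, GRCm38), which encodes the cyclin-dependent kinase inhibitor p21, was at 153 and 116 CPM in the AS1411 libraries and at 13.6, 12.7 and 16.2 CPM in the control libraries. Mdm2 (chromosome 10, 117688875 to 117710758), which encodes the ubiquitin ligase that limits p53, was at 349 and 308 CPM with AS1411 and 87.1, 80.9 and 89.7 CPM with the control. Ppp1r15a (chromosome 7, 45522916 to 45526268), whose product returns eIF2-alpha to its active state after stress, was at 177 and 198 CPM with AS1411 against 32.6, 33.4 and 31.2 CPM with the control. Atf3 (chromosome 1, 191170296 to 191218039), a stress-induced transcription factor, was at 91.2 and 102 CPM with AS1411 against 12.3, 16.5 and 12.4 CPM with the control. In each of these genes both AS1411 libraries lay far above all 3 control libraries. The log2 fold changes were 3.24 ± 0.11 for Cdkn1a (adjusted p = 8.1e-12), 1.94 ± 0.05 for Mdm2 (4.9e-15), 2.54 ± 0.06 for Ppp1r15a (1.6e-15) and 2.81 ± 0.11 for Atf3 (1.7e-11).

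Secreted and signalling proteins made up much of the rest of the 12. Ccn2, a matricellular growth factor, was at 870.5 and 793 CPM with AS1411 and 239, 236 and 292 CPM with the control. Ptgs2, the inducible prostaglandin synthase, was at 410.1 and 482 CPM with AS1411 against 111, 183 and 116 CPM with the control. Lif, a cytokine of the interleukin-6 family, was at 66.8 and 74.5 CPM with AS1411 against 15.2, 23.1 and 22.7 CPM with the control. The spread among controls was widest for Ptgs2, in which replicate 2 was the highest control, and its log2 fold change was 1.71 ± 0.20 with all libraries and 1.98 without replicate 2. Ccn2 changed by 1.70 ± 0.09 (adjusted p = 1.0e-07) and Lif by 1.78 ± 0.14 (adjusted p = 1.2e-06). At 24 h Ccn2 had averaged 1636 CPM with AS1411 and 1037 CPM with the control, so it was lower at 48 h in both treatments. Ptgs2 had averaged 602 CPM with AS1411 and 486 CPM with the control at 24 h. Its fall to 48 h passed the threshold with the control but not with AS1411. Lif, at 50.9 and 52.2 CPM at 24 h, was higher at 48 h with AS1411 and lower with the control. The AP-1 subunit Junb (log2 1.97 ± 0.11), the NF-kB feedback inhibitor Tnfaip3 (log2 1.69 ± 0.14), the adhesion molecule Mcam (log2 1.86 ± 0.07), the small GTPase Rnd1 (log2 1.79 ± 0.09) and the arrestin-fold protein Arrdc3 (log2 1.61 ± 0.08) completed the group.

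The 12 largest falls among abundant genes held several enzymes of sterol and fatty acid synthesis and several secreted or surface proteins. Gas1 (chromosome 13, 60174405 to 60177365), a surface protein that binds Hedgehog ligands, was at 29 and 23.3 CPM with AS1411 and 219, 168 and 227 CPM with the control. Gjb2 (chromosome 14, 57098600 to 57104702), the gap-junction protein connexin 26, was at 74.2 and 70.1 CPM with AS1411 against 302, 331 and 346 CPM with the control. Mgat3, a glycosyltransferase that adds a bisecting residue to N-glycans, was at 32.4 and 32.1 CPM with AS1411 against 100.4, 94.5 and 93.3 CPM with the control. The groups of these 3 genes were separated by a wide gap, with log2 fold changes of -2.96 ± 0.16 (adjusted p = 5.4e-07), -2.18 ± 0.06 (4.9e-15) and -1.57 ± 0.07 (1.6e-12). Libraries of 1 group differed more in Ogn, a small leucine-rich proteoglycan, which was at 37.9 and 20.8 CPM with AS1411 and 150.5, 85.2 and 168 CPM with the control. Mgp, an inhibitor of matrix calcification, was at 16.3 and 8.67 CPM with AS1411 against 45.5, 25.8 and 65.2 CPM with the control, and Il1rn, the interleukin-1 receptor antagonist, at 14.6 and 7.11 CPM with AS1411 against 73.2, 32.6 and 69.3 CPM with the control. In these 3 genes replicate 2 was the lowest library of each treatment. Without control replicate 2 their log2 fold changes were -2.42, -2.13 and -2.69, in place of -2.18, -1.86 and -2.41, and all passed the threshold. The GTPase-activating protein Arhgap28 changed by -1.98 ± 0.09 on the log2 scale.

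**Figure D2:**
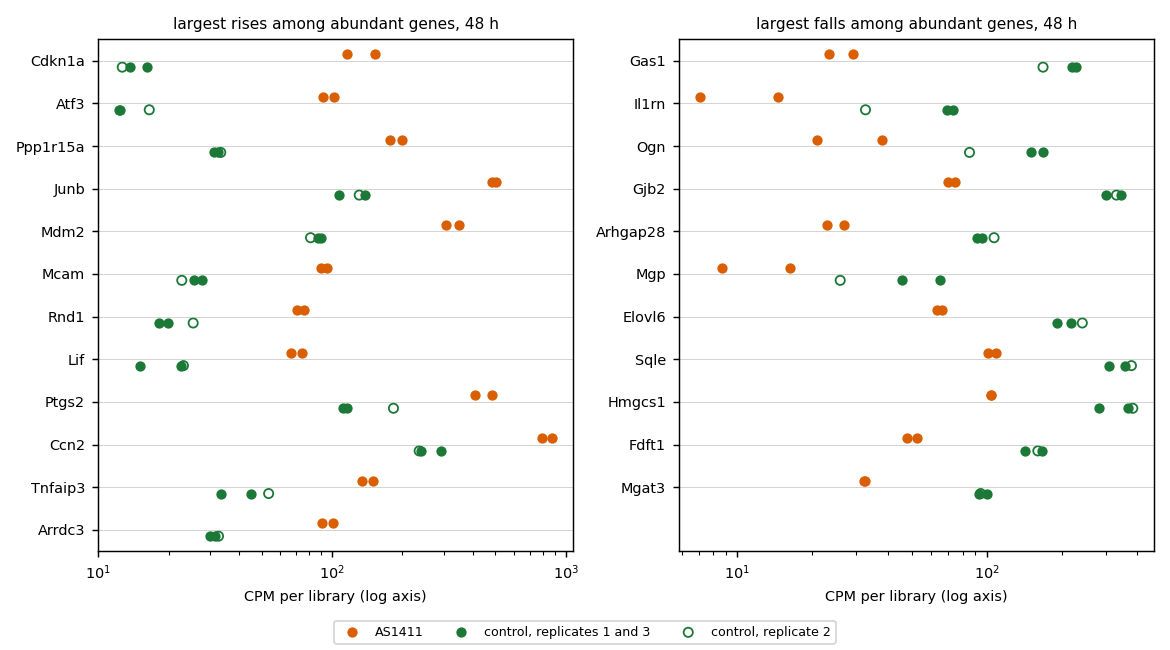
CPM per library (log axis) at 48 h for abundant genes among the 12 with the largest rises (left) and the 12 with the largest falls (right), as far as the text describes them. AS1411 libraries are orange, control replicates 1 and 3 filled green and control replicate 2 open green, and for no gene shown do the groups overlap, as the choice of genes required.

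Gene lists by function were then examined. Their counts should be read against the background, in which 29.4% of all genes were higher and 28.5% lower. This background varied with abundance. In the most abundant of the 5 groups above, 17.2% were higher and 55.5% lower, and in the lowest 30.9% and 6.13%. The lists were not matched to genes of like abundance, so a list of abundant genes may hold many lower members for that reason alone. List counts with library-size scaling belong to a background of 5428 higher and 2372 lower among the 13040 genes. Those at 24 h belong to 13.1% higher and 16.7% lower. AS1411 and control libraries at 48 h did not overlap in 67.9% of all genes. Most named genes were chosen for a small adjusted p or a large change, which favours such a gap. The transcription factor p53 is held low by MDM2 in growing cells, and its targets halt the cycle, repair DNA or promote cell death. Of 29 p53 targets, 21 were higher and 2 lower, at a median log2 fold change of 0.92. Without 2 members that passed the low-count filter only through the AS1411 libraries of 48 h, 19 of 27 were higher and 2 lower, at a median of 0.69. Plk2, a centriole kinase, was at 855 and 907 CPM with AS1411 and 357, 414 and 358 CPM with the control (log2 1.23 ± 0.05). Ccng1, which encodes cyclin G1, was at 228 and 208 CPM with AS1411 against 113, 109.5 and 123 CPM with the control (log2 0.92 ± 0.05). Control libraries were close together in both, and no AS1411 library fell among them. The list was not uniform, since the pro-apoptotic Bax changed by -0.40 ± 0.05 on the log2 scale and the stress-induced Sesn1 by -0.36 ± 0.09, and the call of Sesn1 was lost with library-size scaling. Within the BCL2 family, which sets the threshold for mitochondrial cell death, 7 of 15 genes were higher and 4 lower, or 9 and 2 with library-size scaling. The BH3-only genes Pmaip1 and Bbc3, both p53 targets, rose: Pmaip1 was at 19.2 and 19.8 CPM with AS1411 and 4.01, 4.1 and 4.19 CPM with the control (log2 2.25 ± 0.12), and Bbc3 at 32.2 and 25.6 CPM with AS1411 against 12.6, 14.3 and 12.3 CPM with the control (log2 1.15 ± 0.10). The survival gene Bcl2l2 was also higher (log2 0.71 ± 0.07) and the hypoxia-linked Bnip3 lower (log2 -0.59 ± 0.11).

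Cell-cycle genes were counted by phase. Of 23 cyclins, kinases and inhibitors, 10 were higher and 7 lower, with a median near 0 (-0.03) whose sign turned with library-size scaling, with upper-quartile scaling and without control replicate 2. Ccne2, a cyclin of S-phase entry, was at 143 and 158 CPM with AS1411 and 75.2, 74.8 and 74.3 CPM with the control (log2 1.01 ± 0.05). E2f1, an activator of S-phase genes, was at 142 and 141 CPM with AS1411 against 93.4, 90.5 and 91.9 CPM with the control (log2 0.62 ± 0.04). Cdkn2a, the INK4A and ARF locus, was at 199.5 and 189 CPM with AS1411 against 351, 313 and 368 CPM with the control (log2 -0.83 ± 0.06). Thus 2 positive S-phase regulators and the inhibitor p21 were higher, while the transcript of another inhibitor locus was lower. Cdk6, a G1 kinase, was lower too (log2 -0.97 ± 0.14), with control replicate 2 as the highest control. Of 40 DNA replication genes, 17 were higher and 9 lower (median 0.07), or 25 and 4 with library-size scaling. The ribonucleotide reductase subunit Rrm2 was at 367 and 388 CPM with AS1411 against 214, 211 and 224 CPM with the control (log2 0.80 ± 0.04), and the origin licensing factors Cdc6 (log2 0.83 ± 0.05) and Cdt1 (log2 0.73 ± 0.04) also rose, whereas the helicase subunit Mcm5 fell (log2 -0.42 ± 0.04).

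Of 39 mitotic genes, 4 were higher and 19 lower at a median of -0.10. With library-size scaling, which moved the median of all genes to 0.16, 10 were higher and 14 lower at a median of 0.05. Plk1, a kinase needed for spindle assembly and mitotic exit, was at 137 and 129.6 CPM with AS1411 and 240.2, 219.5 and 238 CPM with the control (log2 -0.80 ± 0.05). Bub1b, of the spindle checkpoint, was at 183 and 163 CPM with AS1411 against 282, 251 and 284 CPM with the control (log2 -0.65 ± 0.06). The kinetochore gene Ndc80, on the other hand, was at 116 and 121 CPM with AS1411 against 94.3, 77.8 and 89 CPM with the control (log2 0.44 ± 0.06). None of the mitotic genes moved 2-fold, and at 24 h 32 of the 39 had been lower, against 16.7% of all genes. In DNA repair, 11 of 31 genes were higher and 8 lower, or 15 and 8 without control replicate 2 and 16 and 5 with library-size scaling. The Fanconi gene Fanca (log2 0.74 ± 0.06) and Brca1 (log2 0.44 ± 0.05), both of homologous recombination and crosslink repair, rose. The base excision enzymes Ung (log2 -1.20 ± 0.07) and Apex1 (log2 -0.80 ± 0.07) fell.

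The integrated stress response lowers general translation through eIF2-alpha and raises ATF4 and its targets. Its 26 genes did not move together: 10 were higher and 9 lower, at a median of -0.01 whose sign turned with library-size and upper-quartile scaling. Several stress-feedback members rose. Ddit3, the pro-apoptotic factor CHOP, was at 69.6 and 68.1 CPM with AS1411 and 26.7, 24.2 and 24.3 CPM with the control (log2 1.46 ± 0.08). Sesn2, a leucine sensor that restrains mTORC1, was at 77 and 69.9 CPM with AS1411 against 24, 29 and 23.4 CPM with the control (log2 1.53 ± 0.08). Nupr1, a stress-induced chromatin factor, was at 145 and 144 CPM with AS1411 against 61.6, 51.5 and 52.8 CPM with the control (log2 1.39 ± 0.07). Each was clear of its control range, as was Ppp1r15a above. Members that supply amino acids were among those that fell: the transporter Slc7a5 was at 256 and 289 CPM with AS1411 against 463, 554 and 449 CPM with the control (log2 -0.84 ± 0.08) and the serine synthesis enzyme Psat1 at 674 and 768 CPM with AS1411 against 1226, 1254 and 1161 CPM with the control (log2 -0.75 ± 0.05). Chac1, which breaks down glutathione and is an ATF4 target in other cells, was at 55.4 and 71.2 CPM with AS1411 against 32.5, 39.9 and 32.6 CPM with the control (log2 0.85 ± 0.10). It was chosen after its values were seen, for its promoter. Motifs were searched on both strands in RefSeq promoters (GRCm38.p6, 250 bases before to 50 after the first listed start), which were available for 9609 of the tested genes. A match is a run of letters, not a measured binding site. The letters TGATGNAA of ATF4 were in 6 of 22 promoters of this list (27.3%), that of Chac1 included, and in 192 of all 9609. The Chac1 promoter (chr2:119350992-119351291, plus strand) is shown with its match in capitals, whose first base is 193 bases before the start.
Chac1: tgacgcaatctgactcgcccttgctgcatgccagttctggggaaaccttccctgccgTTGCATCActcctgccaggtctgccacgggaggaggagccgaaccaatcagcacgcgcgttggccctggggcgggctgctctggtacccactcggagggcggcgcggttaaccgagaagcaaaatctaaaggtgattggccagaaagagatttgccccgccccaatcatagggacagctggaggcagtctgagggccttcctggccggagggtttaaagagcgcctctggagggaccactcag

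Chaperones of the endoplasmic reticulum were also mixed, with 6 of 21 genes higher and 7 lower (7 and 11 without control replicate 2), and a median of -0.07 that turned to 0.07 with library-size scaling (8 higher, 5 lower). Dnajb9, a target of the unfolded protein sensor IRE1, was at 35.3 and 45.2 CPM with AS1411 and 16.2, 13.4 and 12.9 CPM with the control (log2 1.51 ± 0.11), and Ern1, which encodes IRE1 itself, changed by 0.71 ± 0.08 on the log2 scale. The abundant folding enzyme Pdia3 was at 1474 and 1423 CPM with AS1411 against 2065, 1872 and 1955 CPM with the control (log2 -0.44 ± 0.04) and calnexin, Canx, changed by -0.38 ± 0.04 on the log2 scale. Hspa5, the central chaperone of this compartment, did not pass the threshold (log2 -0.15 ± 0.07, adjusted p = 0.0772), but did so without control replicate 2 (-0.23). Heat shock genes were mostly lower: 21 of 27 fell and 4 rose (2 without AS1411 replicate 1), at a median of -0.43. Hspa8, the constitutive cytosolic chaperone, was at 656 and 623 CPM with AS1411 against 1276, 1190 and 1176 CPM with the control (log2 -0.93 ± 0.05), and Hsp90ab1 at 3067 and 3065 CPM with AS1411 against 5291, 5474 and 5181 CPM with the control (log2 -0.79 ± 0.04). The small heat shock gene Hspb1 went the other way, at 16.7 and 16.8 CPM with AS1411 against 9.14, 7.35 and 8.6 CPM with the control (adjusted p = 4.0e-07). Of 27 NRF2 and glutathione genes, which detoxify oxidants, 17 were lower and 3 higher (median -0.24), or 10 and 6 with library-size scaling, and 1 was higher without AS1411 replicate 2. The glutathione peroxidase Gpx1 fell most clearly, to 146 and 127 CPM with AS1411, against 239.8, 222 and 259 CPM with the control (log2 -0.82 ± 0.06).

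Txnip had the largest change in the list of arrestin-fold and MYC-MAX-MondoA genes. Its product binds thioredoxin and restrains glucose uptake, and the gene is a target of the sugar-sensing factor MondoA. Txnip (chromosome 3, 96557957 to 96561883) was at 80.2 and 73.9 CPM with AS1411 and 8.86, 6.3 and 6.92 CPM with the control, a log2 fold change of 3.40 ± 0.10 (adjusted p = 1.2e-14). At 24 h it had been at 8.96, 8.25 and 8.47 CPM with AS1411 and 8.72, 9 and 10.1 CPM with the control, so those groups overlapped. Its arrestin-fold relatives Arrdc3, at 90.9 and 101 CPM with AS1411 and 31.6, 32.7 and 29.9 CPM with the control, and Arrdc4, at 5.71 and 5.93 CPM with AS1411 against 2.08, 1.41 and 1.95 CPM with the control (log2 1.68 ± 0.20), were higher as well. In all, 9 of the 15 listed genes were higher and none lower (median 0.39). They included Mxd1 (log2 1.28 ± 0.12) and Mxd4 (log2 1.05 ± 0.10), which compete with MYC for MAX. With AS1411 replicate 2, control replicate 1 or control replicate 3 left out, 1 or 2 members were called lower. Of 5 Yippee-like genes, a small zinc-binding family linked to growth arrest, 4 were higher, such as Ypel3 at 22.8 and 19.2 CPM with AS1411 against 9.28, 6.43 and 9.99 CPM with the control (log2 1.29 ± 0.14), Ypel2 (log2 1.12 ± 0.17) and Ypel5 (log2 0.98 ± 0.10). The letters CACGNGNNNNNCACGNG of the carbohydrate response element, to which MondoA and its relative ChREBP are known to bind, were in 9 promoters in all (0.0937%), among them that of Txnip (chr3:96557707-96558006, plus strand). It is shown with the match in capitals, whose first base is 85 bases before the start.
Txnip: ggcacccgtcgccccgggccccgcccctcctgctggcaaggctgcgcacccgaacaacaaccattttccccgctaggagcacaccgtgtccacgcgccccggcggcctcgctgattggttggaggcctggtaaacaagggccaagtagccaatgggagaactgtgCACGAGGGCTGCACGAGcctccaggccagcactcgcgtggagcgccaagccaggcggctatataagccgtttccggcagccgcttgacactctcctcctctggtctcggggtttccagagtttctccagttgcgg

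NF-kB is kept in the cytoplasm by IkB proteins, and its targets include these same inhibitors together with chemokines. Of 20 NF-kB subunits and regulators, 15 were higher and 1, Nfkb1, was lower (log2 -0.29 ± 0.06), at a median of 0.50. Nfkbia, which encodes IkB-alpha, was at 149.6 and 146 CPM with AS1411 and 57, 67.5 and 57.7 CPM with the control (log2 1.28 ± 0.06). Nfkb2, the precursor of the p52 subunit, was at 428 and 435 CPM with AS1411 against 174, 201 and 179 CPM with the control (log2 1.22 ± 0.05). Relb, its partner, was at 72.6 and 78.6 CPM with AS1411 against 26.6, 31.9 and 29.4 CPM with the control (log2 1.36 ± 0.08). The inhibitor gene Nfkbie rose too (log2 1.16 ± 0.09). In Nfkbia, Nfkb2 and Relb the control libraries lay close together, with replicate 2 the highest, and both AS1411 libraries lay well above them. At 24 h 3 of the 20 genes had been higher and 3 lower, against 13.1% and 16.7% of all genes. The letters GGGANNNNCC of NF-kB were in 9 of 16 promoters of the list (56.2%), among them those of Nfkbia, Nfkb2 and Tnfaip3, and in 26.8% of all promoters. In the other lists searched the share was between 27.3% and 45.5%, with 43.8% in the mitotic list. The Nfkbia promoter (chr12:55492598-55492897, minus strand) holds 2 matches, in capitals, with first bases 212 and 29 bases before the start.
Nfkbia: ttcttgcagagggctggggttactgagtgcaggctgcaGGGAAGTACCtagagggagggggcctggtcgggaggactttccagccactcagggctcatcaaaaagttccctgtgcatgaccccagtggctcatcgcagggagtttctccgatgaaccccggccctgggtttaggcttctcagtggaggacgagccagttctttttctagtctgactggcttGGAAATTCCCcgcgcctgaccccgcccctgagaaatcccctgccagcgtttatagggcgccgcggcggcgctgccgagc

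The list of 16 chemokines and cytokines, which also holds the prostaglandin synthase gene Ptgs2, had 11 higher and 4 lower genes, at a median of 1.45. Ccl20, a ligand of CCR6, was among the genes that passed the low-count filter only through the AS1411 libraries of 48 h, and without it 10 of 15 were higher and 4 lower, at a median of 1.37. Ccl2, which attracts monocytes, was at 49.9 and 53.9 CPM with AS1411 and 8.03, 8.69 and 9.71 CPM with the control (log2 2.55 ± 0.10). Cxcl10, an interferon-induced chemokine, was at 45.4 and 38.7 CPM with AS1411 against 12.5, 17.8 and 18.1 CPM with the control (log2 1.37 ± 0.11). Il11, a profibrotic cytokine, was at 5.08 and 3.98 CPM with AS1411 against 0.969, 0.918 and 0.614 CPM with the control (log2 2.45 ± 0.26). All their AS1411 libraries lay above the control values, and Il11 was low in both groups. Ccl20 was at 3.08 and 2.67 CPM with AS1411, while 1 control library had no read for it and the others were at 0.122 and 0.112 CPM. Il1rn (above) and Cxcl5, at 0.114 and 0 CPM with AS1411 and 0.9, 0.306 and 0.949 CPM with the control, were among the 4 that fell.

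Interferon-stimulated genes were higher more often than lower, though members moved both ways. Of 25, 14 were higher and 3 lower, 12 and 5 without control replicate 2, and 8 were higher without AS1411 replicate 1. Irf9, a DNA-binding factor of type I interferon signalling, was at 28.1 and 23.4 CPM with AS1411 and 14.7, 11.9 and 12.8 CPM with the control (log2 0.98 ± 0.10), and the double-stranded RNA sensor Eif2ak2 changed by 0.53 ± 0.06 on the log2 scale. The classic inducible gene Ifit1 was at 3.54 and 2.48 CPM with AS1411 against 6.78, 5.75 and 12 CPM with the control (log2 -1.44 ± 0.33), and Ifit2 at 90.5 and 92.1 CPM with AS1411 against 117, 126 and 109 CPM with the control (log2 -0.36 ± 0.06). These 2 fell while Irf9 and Eif2ak2 rose. Without 1 member that passed the low-count filter only through AS1411 libraries of 48 h, 13 of 24 interferon-stimulated genes were higher and 3 lower. In antigen presentation by MHC class I, 8 of 14 genes were higher and 1 lower (none lower without either AS1411 library or without control replicate 1). H2-D1 was at 150.5 and 151 CPM with AS1411 and 103, 102 and 98 CPM with the control (log2 0.58 ± 0.04), and the peptide transporter Tap1 at 7.02 and 4.43 CPM with AS1411 against 1.66, 0.796 and 1.68 CPM with the control (log2 2.06 ± 0.28). Without 1 member of the MHC list that passed the low-count filter only through AS1411 libraries of 48 h, 7 of 13 were higher. The class I genes resemble each other closely, and how reads that match several of them were counted is not given in the sources used here. Markers of leukocytes were checked beside these lists. Of 8 listed, Cd68 and Cd14 were tested and both were higher, with a summed level of 20.8 and 22.7 CPM in the AS1411 libraries against 8.63 to 9.14 CPM in the control libraries. Csf1r, which failed the low-count filter, had 10 and 0 counts in AS1411 libraries and 1, 3 and 5 in control libraries. The leukocyte markers Ptprc, Adgre1, Cd3e and Itgam were not analysed here. The part of such cells in these lists was not tested.

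Immediate-early genes respond to growth factors and stress within minutes and are then shut down by their own products. Of 28 AP-1 and immediate-early factors, 20 were higher and 2 lower (median 0.76). Mafk, a small MAF protein, was at 121 and 123 CPM with AS1411 and 42.9, 46.3 and 44.6 CPM with the control (log2 1.45 ± 0.05), and at 24 h it had been at 80.2, 76.3 and 78.3 CPM with AS1411 against 60.9, 61.9 and 61.9 CPM with the control. Junb, at 481 and 502 CPM with AS1411 against 107, 131 and 138 CPM with the control at 48 h, had been at 226, 204 and 194 CPM with AS1411 against 225, 201 and 189 CPM with the control at 24 h. Jun was at 194 and 176 CPM with AS1411 against 106, 111 and 126 CPM with the control at 48 h (log2 0.70 ± 0.06) and at 268, 259 and 254 CPM with AS1411 against 277, 254 and 265 CPM with the control at 24 h. Between the times Jun was thus lower at 48 h in both treatments, more so with the control, whereas Junb and Mafk were higher at 48 h than at 24 h with AS1411 and lower with the control. The feedback phosphatase Dusp8 was at 89.4 and 77.9 CPM with AS1411 and 31, 35.7 and 35.4 CPM with the control (log2 1.29 ± 0.07), and Dusp6, which inactivates ERK, changed by 1.07 ± 0.10 on the log2 scale. Within the 17 ERK feedback genes 10 were higher and 3 lower (1 with library-size scaling), among them the RAS inhibitor Spred1 (log2 -0.52 ± 0.04).

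Of 25 growth factor ligands, 15 were higher and 6 lower (median 0.32). Without 1 member that passed the low-count filter only through AS1411 libraries of 48 h, 14 of 24 were higher (median 0.30). Hbegf, a ligand of the EGF receptor, was at 142 and 144 CPM with AS1411 and 46.6, 66 and 49.3 CPM with the control (log2 1.40 ± 0.12). At 24 h Hbegf had averaged 157 CPM with AS1411 and 147 CPM with the control. Ereg, another such ligand, was at 37.8 and 43.8 CPM with AS1411 against 14.9, 15.6 and 15.8 CPM with the control (log2 1.39 ± 0.08), below its 24 h levels of 74.4, 66.4 and 66.7 CPM with AS1411 against 70.4, 66.8 and 67.4 CPM with the control. Vegfa, the endothelial growth factor, changed by 0.64 ± 0.06 on the log2 scale. Bmp2 was at 7.47 and 5.8 CPM with AS1411 against 17.2, 13.3 and 23.6 CPM with the control (log2 -1.44 ± 0.21). Nrg1, which binds receptors of the EGF receptor family, was at 15.2 and 13.4 CPM with AS1411 against 22.2, 24.1 and 23.7 CPM with the control (log2 -0.71 ± 0.08), so ligands of this family moved both ways. Of 23 receptors, 14 were lower and 5 higher (median -0.33), or 9 and 6 with library-size scaling, and 3 were higher without AS1411 replicate 1. Ephb2, a receptor for membrane-bound ephrins, was at 40.6 and 38 CPM with AS1411 against 91.3, 94.9 and 95.2 CPM with the control (log2 -1.25 ± 0.06). The PDGF receptors, which mark fibroblasts, also fell. Pdgfrb was at 46.6 and 32.9 CPM with AS1411 against 107, 84.5 and 125 CPM with the control (log2 -1.40 ± 0.19), and Pdgfra at 21.3 and 16.9 CPM with AS1411 against 43.6, 29 and 50 CPM with the control (log2 -1.09 ± 0.21). Replicate 2 was the lowest library of each treatment for both.

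Most genes of the Hedgehog pathway were lower. Hedgehog ligands relieve the block that Patched places on Smoothened, which then acts through GLI factors. Of 10 genes, 8 were lower and 1 higher, at a median of -0.52. The higher gene had passed the low-count filter only through the AS1411 libraries of 48 h, and the median of the others was -0.60. Ptch1, receptor and target of the pathway, was at 17.5 and 18.6 CPM with AS1411 and 45.8, 35.3 and 49.3 CPM with the control (log2 -1.27 ± 0.12). Smo was at 114 and 117 CPM with AS1411 against 179, 173 and 175 CPM with the control (log2 -0.60 ± 0.05), and Gli3 changed by -0.76 ± 0.08 on the log2 scale. Together with the co-receptor Gas1, members at each step were below all 3 control libraries. Targets of TGF-beta and YAP moved both ways, with 10 of 22 higher and 7 lower. The feedback inhibitor Smad7 was at 88.1 and 91.8 CPM with AS1411 against 31, 40.4 and 32.8 CPM with the control (log2 1.37 ± 0.09) and the YAP target Ankrd1 at 191 and 210.5 CPM with AS1411 against 61.9, 84.2 and 52.9 CPM with the control (log2 1.60 ± 0.16). Against these, Ccn5, of the same protein family as Ccn2, was at 10.5 and 5.8 CPM with AS1411 against 49.1, 23.8 and 48.7 CPM with the control (log2 -2.29 ± 0.39), and Ccn4 changed by -0.55 ± 0.06 on the log2 scale.

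Fibroblasts secrete collagens and proteoglycans and pull on them through actin fibres. Of 27 collagen and collagen-processing genes, 11 were lower and 5 higher. The lower count was 15 without control replicate 2 and 5 without AS1411 replicate 2, and the median of -0.14 became 0.01 with library-size scaling (7 higher, 6 lower). Col1a1 was at 1131 and 856 CPM with AS1411 and 1745, 1663 and 2202 CPM with the control (log2 -0.91 ± 0.16), and Col1a2, the partner chain of type I collagen, at 669 and 502 CPM with AS1411 against 1350, 1134 and 1684 CPM with the control (log2 -1.25 ± 0.19). The collagen chaperone Serpinh1 was at 815 and 710.1 CPM with AS1411 against 1343, 1066 and 1338 CPM with the control (log2 -0.71 ± 0.10). Both type I chains and their chaperone were lower than in every control library, and AS1411 replicate 2 was the lower AS1411 library for all 3. Of 21 matrix proteoglycans and glycoproteins, 12 were lower and 3 higher (median -0.46). Osteomodulin, Omd, was at 5.71 and 4.43 CPM with AS1411 against 31, 15.8 and 36 CPM with the control (log2 -2.44 ± 0.38), the laminin chain Lamc1 at 161 and 139 CPM with AS1411 against 225, 282 and 267 CPM with the control (log2 -0.78 ± 0.12), and tenascin C, Tnc, at 36.5 and 32.6 CPM with AS1411 against 18.5, 16.8 and 22.3 CPM with the control (log2 0.84 ± 0.15). Tenascin, a matrix protein of wounds, was thus higher where most of the list was not.

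Matrix proteases and their inhibitors were mixed (8 of 20 higher, 6 lower). Apart from 1 member that passed the low-count filter only through AS1411 libraries of 48 h, 7 of 19 were higher. The gelatinase Mmp2 was at 259 and 230.3 CPM with AS1411 and 357, 352 and 409 CPM with the control (log2 -0.61 ± 0.06), and the metalloproteinase inhibitor Timp2 at 1142 and 1099 CPM with AS1411 against 1693, 1818 and 1594 CPM with the control (log2 -0.60 ± 0.05). Protease and inhibitor were both below every control library. Of 21 contractile genes 13 were lower and 4 higher, but 7 were lower without AS1411 replicate 2 and 8 with library-size scaling. Actb was at 2426 and 2327 CPM with AS1411 against 3563, 3863 and 3954 CPM with the control (log2 -0.68 ± 0.04), and Tpm1, a tropomyosin, at 1242 and 1206 CPM with AS1411 against 2023, 2108 and 1840 CPM with the control (log2 -0.70 ± 0.05). Tagln, a smooth muscle calponin-like protein, rose instead, to 335 and 311 CPM with AS1411 against 188, 236 and 163 CPM with the control (log2 0.72 ± 0.13). Muscle markers were low, with Des and Acta1 both higher at a summed 7.70 and 9.85 CPM in AS1411 libraries against 1.47 to 1.84 CPM in control libraries, while Myod1, Myog and Ckm were not analysed here. The call of Acta1 was lost without AS1411 replicate 2. Their part in this list was not tested.

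Among 23 integrins, cadherins and connexins, 12 were lower and 7 higher, and 4 were higher without control replicate 1. Apart from 1 member that passed the low-count filter only through AS1411 libraries of 48 h, 6 of 22 were higher. Beside Gjb2, Gja1, connexin 43, fell and was at 289 and 269 CPM with AS1411 against 456, 423 and 421 CPM with the control (log2 -0.64 ± 0.05). Cdh13, an anchored cadherin, was at 27.6 and 27.9 CPM with AS1411 against 68.6, 66.7 and 69.1 CPM with the control (log2 -1.29 ± 0.06). All 3 were below every control library. The labelled cell type was checked with 11 fibroblast markers, of which 10 were tested and present in every library, and Thy1 was not analysed here. Of the 10, 8 were lower and none higher, at a median of -0.72. Their summed level was 5558 and 4963 CPM with AS1411 and 7676, 7732 and 9047 CPM with the control. At 24 h 3 of the 10 had been lower, against 16.7% of all genes. The neuronal tubulin Tubb3, which many cultured cells express, had 802 and 767 counts with AS1411 and 452, 592 and 626 with the control. The epithelial keratin Krt14 had 7 and 3 counts with AS1411 and none in the control libraries. The listed endothelial, adipocyte and red cell markers that could be read summed, per list, to 139 counts at most in any 48 h library, and no listed marker in the table was at 0 in every 48 h library.

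Nucleolin takes part in rRNA synthesis and ribosome assembly, and most genes of these steps were lower. Ncl itself (chromosome 1, 86344719 to 86359400) was at 1404 and 1652 CPM with AS1411 and 2738, 3294 and 2714 CPM with the control (log2 -0.93 ± 0.09), with replicate 2 the highest library of each treatment. Of 43 ribosome biogenesis genes, 36 were lower and none higher (median -0.45). Npm1, nucleophosmin, was at 794 and 871 CPM with AS1411 against 1645, 1798 and 1542 CPM with the control (adjusted p = 3.8e-10). Ubtf, which loads RNA polymerase I, was at 194 and 207 CPM with AS1411 against 360.3, 374 and 345 CPM with the control (log2 -0.84 ± 0.05). Gar1, of the pseudouridylation particles, was at 49.4 and 50.8 CPM with AS1411 against 84.1, 89.1 and 74.6 CPM with the control (log2 -0.72 ± 0.07). Their control values were tightly grouped and lay well above both AS1411 libraries. Of 77 cytosolic ribosomal protein genes, 66 were lower and none higher (median -0.37). Rplp0, of the ribosomal stalk, was at 1071 and 1067 CPM with AS1411 against 1734, 1776 and 1660 CPM with the control (log2 -0.69 ± 0.04), and Rpl14 at 139 and 144 CPM with AS1411 against 218, 230.2 and 224 CPM with the control (log2 -0.66 ± 0.05). Some of these genes had few reads for so abundant a class, such as Rps23 at 8.1 and 11.2 CPM with AS1411 against 17.8, 15.6 and 16.6 CPM with the control. Near-identical processed copies of them exist elsewhere in the genome, so their levels are uncertain.

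Genes for other steps of protein production and turnover were mostly lower too. Of 34 translation factors, 27 were lower and none higher (2 without control replicate 2, 1 without AS1411 replicate 1), or 22 and 5 with library-size scaling. Eif5a, the hypusine-containing elongation factor, was at 968 and 1034 CPM with AS1411 and 2056, 2145 and 1932 CPM with the control (log2 -1.03 ± 0.05), the scaffold Eif4g1 at 1144 and 1169 CPM with AS1411 against 1781, 2093 and 1749 CPM with the control (log2 -0.70 ± 0.06). Of 20 cytosolic aminoacyl-tRNA synthetases, 13 were lower and 2 higher, but 8 were lower without AS1411 replicate 1, 1 was higher without AS1411 replicate 2, and 5 were lower and 7 higher with library-size scaling. Of 31 proteasome subunits, 25 were lower and none higher (1 without control replicate 2, 2 with library-size scaling), at a median of -0.27, for example Psmd6 at 132 and 142 CPM with AS1411 against 207, 202 and 206 CPM with the control (log2 -0.58 ± 0.05). Importins, exportins and nucleoporins were lower in 26 of 37 and higher in 3 (none without AS1411 replicate 2), or 18 and 6 with library-size scaling. Ran, the GTPase that drives nuclear transport, was at 384 and 389 CPM with AS1411 against 724, 738 and 705 CPM with the control (log2 -0.90 ± 0.04), and the importin Kpnb1 changed by -0.42 ± 0.06 on the log2 scale. Among 33 hnRNP and SR splicing factors, 25 were lower and 3 higher (median -0.36), or 22 and 6 with library-size scaling. Hnrnpa0 was at 253 and 242 CPM with AS1411 against 513, 532 and 538 CPM with the control (log2 -1.09 ± 0.04), while Clk1, a kinase of SR proteins, was at 126 and 126 CPM with AS1411 against 62.2, 65.1 and 65.2 CPM with the control (log2 0.97 ± 0.05).

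Cholesterol synthesis had the lowest median of the 47 function lists. When cells lack sterol, SREBP-2 raises the enzymes of cholesterol synthesis. Of 26 cholesterol genes, 23 were lower and 2 higher (1 without AS1411 replicate 1 or control replicate 1 or 2), at a median of -1.03, and 13 fell at least 2-fold (1.99% of all genes did). Hmgcs1, at the entry to the pathway, was at 104 and 104 CPM with AS1411 and 366, 385 and 282 CPM with the control (log2 -1.73 ± 0.13). Sqle, squalene epoxidase, was at 109 and 101 CPM with AS1411 against 359.6, 379.9 and 308 CPM with the control (log2 -1.73 ± 0.08). Srebf2, which encodes SREBP-2, was at 204 and 194 CPM with AS1411 against 459, 504 and 420.5 CPM with the control (log2 -1.21 ± 0.06). All 3 had AS1411 libraries below every control library, as had squalene synthase, Fdft1 (log2 -1.63 ± 0.08). The endosomal cholesterol exporter Npc1 was among the 2 that rose, at 64.9 and 64.2 CPM with AS1411 against 44.4, 46.8 and 43.9 CPM with the control (log2 0.52 ± 0.06). Of 17 fatty acid genes 14 were lower and 1, Srebf1, was higher (log2 0.29 ± 0.06), at a median of -0.65. The desaturase Scd2 was at 893 and 757 CPM with AS1411 against 2633, 2430 and 2153 CPM with the control (log2 -1.54 ± 0.10) and the elongase Elovl6 at 66.2 and 63.4 CPM with AS1411 against 217, 241 and 192 CPM with the control (log2 -1.74 ± 0.08). Fasn, fatty acid synthase, was at 294 and 272 CPM with AS1411 against 385, 611 and 393 CPM with the control, so control replicate 2 was far above its group. Its change of -0.71 ± 0.20 became -0.45 without that library, and the call was lost when either AS1411 library was left out. The letters TCACNCCAC of SREBP were in 1 of 18 promoters of the cholesterol list, that of Hmgcs1 (chr13:119690101-119690400, plus strand), and in 1.04% of all. CCAAT, the letters of the factor NF-Y, was in 83.3% of the cholesterol promoters and 39.3% of all, but also in 78.1% of the promoters of the mitotic list and 59.1% of those of the integrated stress response. The Hmgcs1 promoter is shown with the SREBP match in capitals, its first base 137 bases before the start.
Hmgcs1: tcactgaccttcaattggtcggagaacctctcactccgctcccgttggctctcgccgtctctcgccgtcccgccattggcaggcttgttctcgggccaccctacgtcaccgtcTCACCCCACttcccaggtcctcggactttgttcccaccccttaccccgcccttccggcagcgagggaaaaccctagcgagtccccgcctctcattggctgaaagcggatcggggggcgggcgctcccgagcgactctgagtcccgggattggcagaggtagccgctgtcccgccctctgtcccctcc

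Genes of energy metabolism varied by compartment. Of 22 glycolysis and hypoxia genes 14 were lower and 2 higher (1 without AS1411 replicate 2 or control replicate 1 or 3), at a median of -0.33. Pkm, the pyruvate kinase, was at 1111 and 1097 CPM with AS1411 and 2214, 2198 and 1936 CPM with the control (log2 -0.94 ± 0.05), and Ldha, lactate dehydrogenase, at 700.5 and 759.5 CPM with AS1411 against 1298, 1219 and 1129 CPM with the control (log2 -0.73 ± 0.05). In the nuclear-encoded respiratory chain 20 of 48 were lower and 6 higher, or 8 and 15 with library-size scaling, and the median of -0.10 turned to 0.05. Cyc1, of complex III, was at 202 and 216 CPM with AS1411 against 289, 296 and 276 CPM with the control (log2 -0.46 ± 0.04), while Uqcrq, of the same complex, was at 214 and 219.7 CPM with AS1411 against 168, 162 and 165 CPM with the control (log2 0.40 ± 0.04). Subunits of 1 complex thus moved in opposite directions. Of 7 mitochondrially encoded mRNAs tested, all of which had been higher at 24 h, 2 were higher at 48 h (median 0.19). mt-Nd6 was at 413 and 406 CPM with AS1411 against 216, 286 and 221 CPM with the control (log2 0.76 ± 0.18). mt-Nd1 was at 2290 and 2100 CPM with AS1411 against 2842, 3483 and 2232 CPM with the control, with overlapping groups and a change of -0.38 ± 0.19 on the log2 scale that did not pass (adjusted p = 0.133), although it did without control replicate 3. The calls of this small list varied with the libraries kept: 1 was higher when either AS1411 library, control replicate 1 or control replicate 3 was left out, and 1 was lower without control replicate 3.

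Autophagy delivers proteins and organelles to the lysosome. Of 29 autophagy genes 19 were higher and 5 lower (3 lower without either AS1411 library or control replicate 3, 2 with library-size scaling), at a median of 0.36. Nbr1, a cargo receptor, was at 189.7 and 212 CPM with AS1411 and 105, 89.6 and 111 CPM with the control (log2 0.98 ± 0.07). Sqstm1, the receptor p62, was at 703 and 816 CPM with AS1411 against 496, 541 and 458 CPM with the control (log2 0.61 ± 0.07). Map1lc3b, which coats the autophagosome membrane, was at 119.6 and 123 CPM with AS1411 against 79.5, 78.6 and 84.3 CPM with the control (log2 0.59 ± 0.05). No AS1411 library of these 3 overlapped the controls, as in 67.9% of all genes. Atg14, which starts autophagosome formation, rose as well (log2 1.19 ± 0.10). Of 30 lysosome genes 15 were higher and 8 lower (18 and 2 with library-size scaling), with the sialidase Neu1 higher (log2 0.97 ± 0.07) and the protease Ctsb lower (log2 -0.51 ± 0.04). The 25 genes of mTOR and amino acid sensing had 10 higher and 6 lower members, 6 higher without AS1411 replicate 2, and 13 higher and 3 lower with library-size scaling. Apart from 1 member that passed the low-count filter only through AS1411 libraries of 48 h, 9 of 24 were higher. Rptor, the substrate-binding subunit of mTORC1, was at 39.5 and 39.7 CPM with AS1411 against 72.1, 84.8 and 75.3 CPM with the control (log2 -0.97 ± 0.07), Mtor changed by -0.52 ± 0.07 on the log2 scale and Castor2, a relative of the arginine sensor of this pathway, by 0.78 ± 0.09. Rab GTPases and sorting nexins went both ways (10 of 33 higher, 13 lower, or 15 and 7 with library-size scaling), from Rab32 (log2 -0.85 ± 0.09) to Snx32 (log2 1.20 ± 0.15).

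Of 36 genes for histone methylation and deacetylation, 11 were higher and 9 lower, and of 16 clock genes 3 were higher and 6 lower (5 and 6 without control replicate 2, 4 and 2 with library-size scaling). The methyltransferase subunit Setd1b (log2 -0.92 ± 0.11), the demethylase Kdm5c (log2 -0.62 ± 0.05) and the clock-output factor Hlf (log2 -1.42 ± 0.17) fell, whereas the deacetylase Sirt1 (log2 0.49 ± 0.08) and the clock activator Arntl (log2 0.42 ± 0.09) rose. Hlf was at 12.2 and 11.6 CPM with AS1411 and 36.2, 36.6 and 23.2 CPM with the control. Of 7 targets of the aryl hydrocarbon receptor, 3 were higher (1 without AS1411 replicate 1) and 2 lower, at changes between -0.97 and 0.44, and 6 of the 7 had been lower at 24 h. The receptor gene Ahr was at 27.6 and 23.1 CPM with AS1411 against 47.3, 41.9 and 60.2 CPM with the control (log2 -0.97 ± 0.14). Among 18 long noncoding and host transcripts, 6 were higher and 3 lower. Malat1, a nuclear-retained RNA, was at 356 and 317 CPM with AS1411 against 167, 167 and 164 CPM with the control (log2 1.02 ± 0.13), and the snoRNA host Snhg12 at 43.9 and 41.9 CPM with AS1411 against 19, 20.6 and 17.2 CPM with the control (log2 1.18 ± 0.09). Both stood clear of their controls. H19, an imprinted transcript, was at 0.628 and 0.13 CPM with AS1411 against 3.18, 1.84 and 3.91 CPM with the control and was among those that fell, with too few reads in the AS1411 libraries for a fold change.

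**Figure D3:**
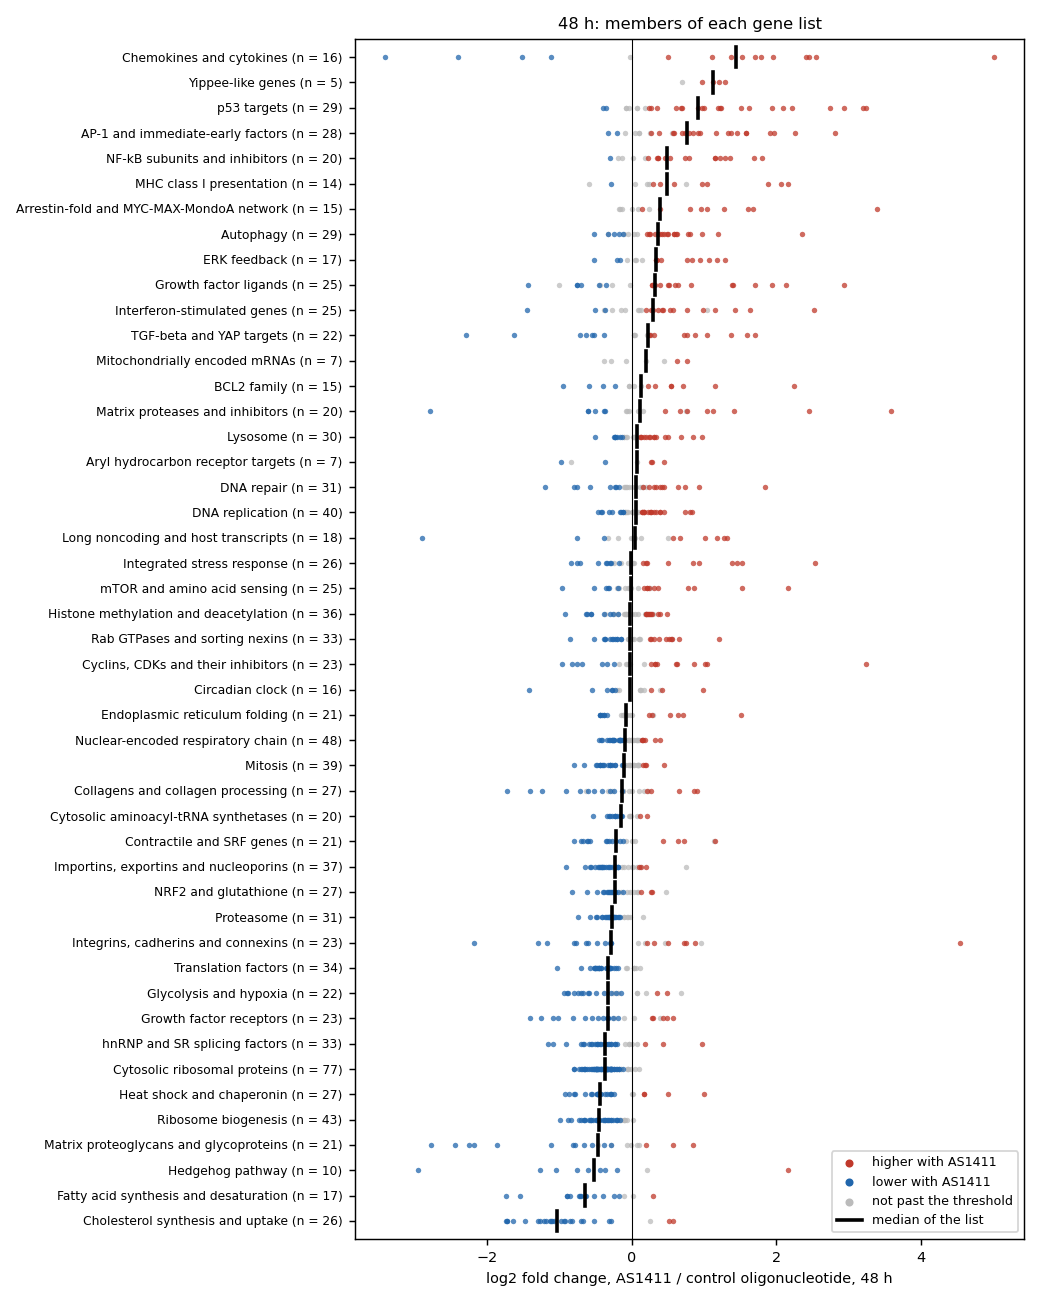
Log2 fold change at 48 h of every tested member of each function list, 1 point per gene and 1 line per list, coloured by the test result, with the list's median as a black bar. Medians run from -1.03 for cholesterol synthesis to 1.45 for chemokines and cytokines, against 0.01 over all genes.

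The difference between the 48 h and the 24 h effect was tested for each gene. It was positive for 1749 genes (13.4%) and negative for 1845 (14.1%). At 24 h 1702 genes (13.1%) were higher and 2176 (16.7%) lower. Of the genes higher at 48 h, 1264 had also been higher at 24 h, which is 33.0% of the 48 h genes and 74.3% of the 24 h genes. For lower genes the number was 1729, or 46.6% and 79.5%. Opposite calls were few, with 84 genes higher at 48 h but lower at 24 h and 37 the other way. The comparisons at the 2 times share no libraries. Resf1, which silences retroelements, was at 172 and 169.8 CPM with AS1411 and 68.9, 74.8 and 74.4 CPM with the control at 48 h, and at 46.9, 52.9 and 47.1 CPM with AS1411 against 65.4, 72.3 and 77.8 CPM with the control at 24 h. It was thus above the controls at 48 h and below them at 24 h, with effects of 1.23 ± 0.06 and -0.55 ± 0.06 that differed by 1.78 ± 0.09 (adjusted p = 2.0e-10). Plk2 turned in the same way (1.23 ± 0.05 and -0.24 ± 0.05, adjusted p of the difference 2.1e-10). In the other direction, Ephb2 had an effect of -1.25 ± 0.06 at 48 h and -0.12 ± 0.05 at 24 h, when it was at 62.4, 64.4 and 65.2 CPM with AS1411 and 69, 70 and 69.6 CPM with the control, a difference between effects of -1.13 ± 0.07. Cdh13 had overlapping groups at 24 h (-0.02 ± 0.04) and a change of -1.29 ± 0.06 at 48 h.

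**Figure D4:**
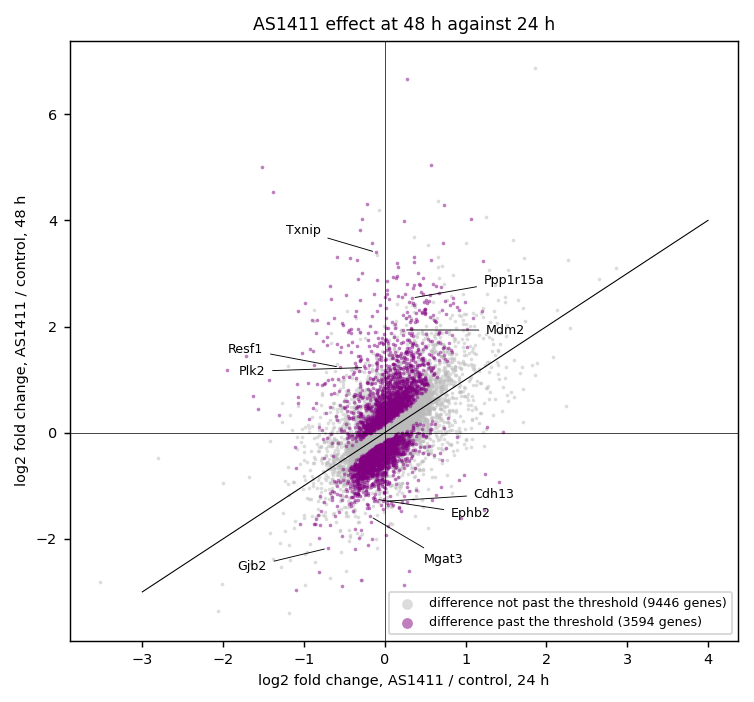
Log2 fold change (AS1411 over control) at 48 h on the vertical axis against that at 24 h on the horizontal axis, 1 point per gene, with the line of equal effects. Purple genes have effects that differ between the times by the test, and the named genes are from the 5 per direction of smallest adjusted p whose log2 CPM was 2 or more on average.

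Among called genes with an average log2 CPM of 2 or more, the 5 whose fold change moved furthest without control replicate 2 were all higher in that library than in the other controls. Traf1, an adaptor of TNF receptors, was at 20.9 and 25.2 CPM with AS1411, against 10.2 CPM in control replicate 2 and 4.57 and 5.02 CPM in the others. Nr4a1, an inducible nuclear receptor, was at 77.7 and 103 CPM with AS1411, against 47.3 CPM in control replicate 2 and 21 and 21.6 CPM in the others. Fosb, an AP-1 subunit, was at 6.96 and 15.7 CPM with AS1411, against 4.71 CPM in control replicate 2 and 1.87 and 2.23 CPM in the others. In each, both AS1411 libraries stayed above control replicate 2. Leaving it out changed the log2 fold change to 2.26 for Traf1, against 1.80 with it, to 2.08 for Nr4a1, against 1.59, and to 2.43 for Fosb, against 1.92. Fosb was at 1.23 without AS1411 replicate 2. The membrane protein Tmem171 (2.40 without replicate 2, 1.98 with it) and the NIPA-like magnesium transporter Nipal1 (1.42 and 0.96) moved alike, and the call of Nipal1 was lost without AS1411 replicate 2 and without control replicate 1 or 3. Of the 907 genes at least 2-fold higher, 866 were still called higher without control replicate 2, and of the 260 at least 2-fold lower, 250 were still called lower.

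**Figure D5:**
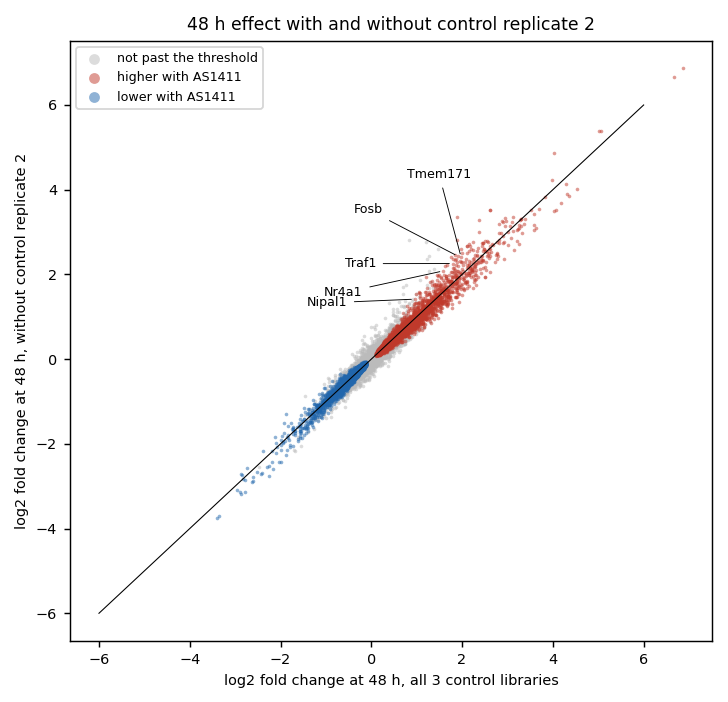
Log2 fold change at 48 h without control replicate 2 (vertical axis) against that with all 3 control libraries (horizontal axis), 1 point per gene, coloured by the test with all libraries. The 5 named genes moved furthest among called genes whose log2 CPM was 2 or more on average, and all lie above the line of equality.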

How the data were processed

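Whole-number read counts per gene from 11 libraries were used as deposited, and per the submitters' processing notes the tools were STAR, HTSeq, cutadapt, bcl2fastq and DESeq2, with the build GRCm38 (for versions, strand setting and multi-mapped reads: not given in the sources used here). The table holds genes with at least 8 reads in all, and others were not analysed here. All 11 libraries entered 1 fit with a coefficient per group (7 residual degrees of freedom) in edgeR 4.0.16 under R 4.3.3, after filterByExpr and TMM, with the robust quasi-likelihood test and Benjamini-Hochberg adjustment over 13040 genes at 0.05. Standard errors of log2 fold changes were derived from the F statistic. DESeq2 1.42.0 was an alternative. Gene names came from GENCODE M21 (39 tested IDs without a symbol).

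The comparison, the 47 function lists and the markers were chosen with earlier results of these data known. Named genes were the 12 largest rises and falls among abundant genes without overlap (leaving out Gm and Rik names), from each list the first 2 genes, up to 4 with the smallest adjusted p and up to 2 called in each direction with the largest change, the 5 strongest differences from 24 h in each direction, the 5 most moved by control replicate 2, and Ncl. Genes outside this rule are marker genes and Chac1. Some genes that meet the rule are not reported here.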

Additional observations from a re-analysis of the deposited data

Results flagged for a closer look

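The effect of AS1411 at 48 h differed from that at 24 h, by a test of the difference itself, in 1749 genes with a more positive effect and 1845 with a more negative one. Among the named genes, the difference (48 h effect minus 24 h effect, log2 ± SE) was 3.50 ± 0.16 for Txnip, 2.21 ± 0.08 for Ppp1r15a, 1.78 ± 0.09 for Resf1, 1.71 ± 0.07 for Mdm2 and 1.47 ± 0.07 for Plk2. On the negative side it was -1.47 ± 0.08 for Gjb2, -1.39 ± 0.09 for Mgat3, -1.28 ± 0.07 for Cdh13 and -1.13 ± 0.07 for Ephb2. The adjusted p in edgeR's quasi-likelihood test was 2.7e-11 for Txnip and 2.4e-09 for Ephb2. Both AS1411 libraries of 48 h lay on 1 side of all 3 controls in each of these 9 genes, as in 67.9% of all genes. The 9 had been chosen by the adjusted p of the difference, which favours such a gap.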

How the results depend on the processing

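With 2 AS1411 and 3 control libraries at 48 h, each library weighed on the counts. When each 48 h library was left out in turn, the number of higher genes was between 3046 and 3904, of lower genes between 3162 and 3797, of at least 2-fold higher genes between 791 and 928, and of at least 2-fold lower genes between 234 and 274. Scaling by total count gave 2372 lower and 164 at least 2-fold lower genes, and 1192 with a more negative effect at 48 h than at 24 h, since it moved the median of all genes by more than 0.1. An adjusted p under 0.01 left 966 genes with a more positive and 1040 with a more negative effect at 48 h. DESeq2's Wald test gave 3287 higher and 3495 lower genes, and a fit of the 48 h libraries alone gave 3194 and 3138. Of 171 named genes that were called, 166 were called under every alternative, none reversed, and Fasn, Nipal1, Sesn1, Acta1 and mt-Nd6 missed the threshold under some. Most named genes had been chosen for a small adjusted p or a large change, so this share does not stand for all called genes. The changes of Bax, Canx, Ifit2, Kpnb1, Mcm5 and Nfkb1 were over 1.5 times smaller with total-count scaling, though still called. Of 1410 recomputed list counts, 1299 stayed within 1.5 times. The causes were not tested.

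Whether the replicate numbers of the labels pair the samples was examined through deviations from the group mean. At 24 h, those of same-numbered AS1411 and control libraries correlated at -0.07, 0.03 and -0.07 across genes. Not every library correlated best with its own number. At 48 h the values were 0.20 and 0.36 for the 2 shared numbers. AS1411 replicate 2 correlated best with control replicate 2, and AS1411 replicate 1 with control replicate 3 (0.27). The deviations of 2 AS1411 libraries mirror each other by construction, so this check cannot decide about pairing at 48 h. With a replicate block within each time, which left 3 residual degrees of freedom, 3858 genes were higher, 3685 lower, 921 at least 2-fold higher and 239 at least 2-fold lower, with 1970 of more positive effect at 48 h.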

Other observations

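Gene classes were counted beside the 29.4% of all genes that were higher and the 28.5% that were lower. Of 466 processed pseudogenes tested, which are copies of mRNAs from other genes, 2.79% were higher and 21.2% lower (median -0.36), both below those shares. Of 213 long intergenic RNAs 29.6% were higher, close to the share of all genes, and 7.98% lower. Of 249 antisense RNAs 19.7% were higher and 4.42% lower. Whether the counts used strand is not given in the sources used here, so reads of an antisense RNA and its partner may not have been told apart. Zinc finger genes named Zfp numbered 326, of which 34.4% were higher and 10.1% lower. Of 5 equal groups by summed exon length, the longest had 25.2% higher and 36.4% lower genes, and the middle group had 33.8% higher and 27.2% lower genes.

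Among the RefSeq promoters of tested genes, the letters TGANTCA of AP-1 were in 8.03% of those of genes at least 2-fold higher (53 of 660), in 7.69% of those at least 2-fold lower (10 of 130) and in 4.57% of all. Over all called genes, whatever the size of change, the shares were 5.31% of higher and 4.15% of lower genes. The repeat GGTGGTGG of AS1411 itself was in 3.03% of the at least 2-fold higher set (20 of 660), 4.62% of the at least 2-fold lower set (6 of 130) and 2.86% of all. Over all called genes it was in 2.95% of higher and 2.66% of lower genes. None of the motifs given contains another, apart from letters that may fill free positions (N).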
